A study of Mus musculus with 13 samples.

Results

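Chemokines and their receptors were followed as 1 gene family through the RNA-Seq libraries of mouse ECs with and without Apelin. Members were taken by symbol, as all genes named Ccl, Cxcl, Ccr, Cxcr or Ackr with a number, together with Xcl1, Xcr1, Cx3cl1 and Cx3cr1. This gave 61 genes of the 24984 listed for tumor ECs and the 24421 listed for sprout ECs. They comprised 24 CC ligands, 13 CXC ligands, Xcl1 and Cx3cl1 as the other ligands, 18 signaling receptors and 4 atypical receptors. The rule uses symbols alone, although the family was picked with earlier results of these data known. For tumor ECs, E0771 mammary carcinoma cells were grown orthotopically in C57BL/6J mice, and CD45- CD31+ CD105+ cells were sorted at day 25, with 100 cells per library. In the Apelin-depleted group the tumor cells carried shApln and the host was Apln-/- (n = 3), and in the Apelin wild-type group the tumor cells carried shRenilla and the host was wild-type (n = 6). Apelin was therefore missing from tumor cells and host together, and the part of each cannot be told apart. For sprout ECs, CD31+ cells were sorted from EBs of haploid mESCs on a C57BL/6x129 background, moved at day 8 into collagen I with 30 ng/mL VEGFA164. The Apln STOP cells carried a gene trap in sense orientation between exons 1 and 2 of Apln and received DMSO (n = 2), while the Apln GO sister cells had the trap turned to antisense by a retrovirus encoding Cre and mCherry and received 1000 nM Apelin Pyr13 (n = 2). Genotype, Cre virus and peptide thus differed together between Apln STOP and Apln GO. The ages and sexes of the mice were not given in the sources used here, and nothing states whether replicates came from separate animals or cultures, so the p-values measure only the spread between these libraries.

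Chemokines are small secreted proteins that steer migrating cells. They are named for the spacing of their first cysteines and signal through G protein-coupled receptors on leukocytes, ECs and other cells, and ECs hold many of them on heparan sulfate at the vessel wall. The atypical receptors Ackr1 to Ackr4 bind chemokines without G protein signaling and carry or clear them. In vessels, Cxcl12 and its receptor Cxcr4 guide sprouting and artery formation, with Ackr3 scavenging Cxcl12, whereas Ccl2, Cxcl1, Cx3cl1, Cxcl9 and Cxcl10 on inflamed endothelium recruit monocytes, neutrophils and lymphocytes.

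Total counts ranged from 4661044 to 14455093 in tumor libraries and from 12327030 to 16804071 in sprout libraries, so that 3 counts corresponded to 0.208 to 0.644 CPM and 0.179 to 0.243 CPM, respectively. Apln itself was at 12.1, 8.51 and 2.44 CPM in Apelin-depleted and between 416 and 1033 CPM in Apelin wild-type tumor ECs. In sprout ECs it was at 66.1 and 80.2 CPM in the libraries labelled Apln STOP against 58.2 and 65.9 CPM in Apln GO, so its total count was not lower where the label says STOP, and every direction given below for sprout ECs refers to libraries labelled Apln STOP. Counts per gene do not separate reads from either side of the trap. The Apelin receptor gene Aplnr was at 15.6 and 10.4 CPM in Apln STOP and at 73.6 and 50.1 CPM in Apln GO. Endothelial markers without the sort markers summed to 5821 to 10446 CPM in tumor libraries. They summed to 430 and 619 CPM in Apln STOP and to 2142 and 2043 CPM in Apln GO. Markers of pluripotent cells summed to 5553 and 5419 CPM in Apln STOP and to 2077 and 3497 CPM in Apln GO. In such sorted pools, fewer cells of a type and less RNA per cell cannot be told apart. Fibroblast and mural markers reached 5360 CPM in Apelin wild-type replicate 2, with at most 410 CPM in the other tumor libraries. In sprout ECs they were high in 1 library of each group, at 3149 CPM in Apln STOP replicate 2 and 3255 CPM in Apln GO replicate 1, against 520 and 716 CPM in the others.

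Many members lie in gene clusters. In GRCm38.p6 (mm10), Ccl2, Ccl7, Ccl11, Ccl12, Ccl8 and Ccl1 span 144 kb of chromosome 11, and Ccl3, Ccl4, Ccl5, Ccl6 and Ccl9 span 139 kb of the same chromosome. Cxcl1, Cxcl2, Cxcl3, Cxcl5 and Cxcl15, most of which encode neutrophil attractants, span 147 kb of chromosome 5. The interferon-induced Cxcl9, Cxcl10 and Cxcl11 span 42.0 kb of it. Promoter sequences, from 250 bases before to 50 bases from the start on, were held in RefSeq for 45 of the 61 members, with 52 promoters. The NF-kappa-B consensus, searched on both strands as a motif of 10 letters, was found in 12 of the 52 (23.1%) and in 8.46% of all 32851 promoters of that length. An interferon-stimulated response element was found in 3 of the 52 (5.77%, in Ccl19, Cxcl10 and Cxcl14) and in 3.44% of all. The stretches below were chosen because they hold matches. Cxcl1, Cxcl2 and Cxcl10 were well expressed in tumor ECs, and Cxcl3 carries the same match as Cxcl1 and Cxcl2 at a much lower level. The promoters of Cxcl9, Cxcl12, Cx3cl1, Cxcr4 and Ackr1, also looked at, held neither motif in this window. Capitals mark the matches, overlapping ones joined, on the strand of the gene, and positions count the first base of the gene as 0.
Cxcl1, chr5:90891154-90891204, plus strand, bases -91 to -41: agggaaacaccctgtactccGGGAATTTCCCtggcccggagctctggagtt
Cxcl2, chr5:90903782-90903832, plus strand, bases -117 to -67: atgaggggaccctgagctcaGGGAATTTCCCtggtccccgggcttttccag
Cxcl3, chr5:90786008-90786058, plus strand, bases -93 to -43: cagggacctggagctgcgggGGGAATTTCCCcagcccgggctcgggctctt
Cxcl10, chr5:92348963-92349122, minus strand, bases -233 to -74: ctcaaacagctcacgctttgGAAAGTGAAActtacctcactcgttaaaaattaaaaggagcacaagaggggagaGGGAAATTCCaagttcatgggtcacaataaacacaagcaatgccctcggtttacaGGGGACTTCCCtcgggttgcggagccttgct
Cxcl1, Cxcl2 and Cxcl3 held the same NF-kappa-B match within the last 100 bases before the start. Cxcl10 held an interferon-stimulated response element from -213 to -204, followed by NF-kappa-B matches at -159 and -104. A match is a description of letters, and binding was not measured.

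The family was far more abundant in tumor ECs. Its 61 genes took 0.153 to 0.433% of all counts per tumor library (median 0.266%) and 0.00973 to 0.0291% per sprout library. Tissue, library kit and counting tool differed together between both sets of ECs, so this contrast was not tested. Ligands made up 80.4 to 97.7% of the members' summed CPM in tumor ECs and 38.8 to 64.6% in sprout ECs. CXC ligands were the main class in most tumor libraries, with 31.1 to 78.8% of the summed CPM, followed by CC ligands with 9.04 to 46.5%. Of receptor CPM, atypical receptors held 74.5 to 94.9% in tumor ECs and Cxcr4 0.999 to 9.41%. In sprout ECs atypical receptors held 20.3 to 54.6% and Cxcr4 39.0 to 76.1%. In Apln STOP replicate 1 the atypical share, 54.6%, was above that of Cxcr4. These sprout shares use HTSeq counts, in which Cxcr2 had at most 2 per library. By RSEM, Cxcr2 had 695 to 1167 expected counts per library and Cxcr4 221 to 1432, so the receptor shares depend on the counting tool.

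**Figure D1:**
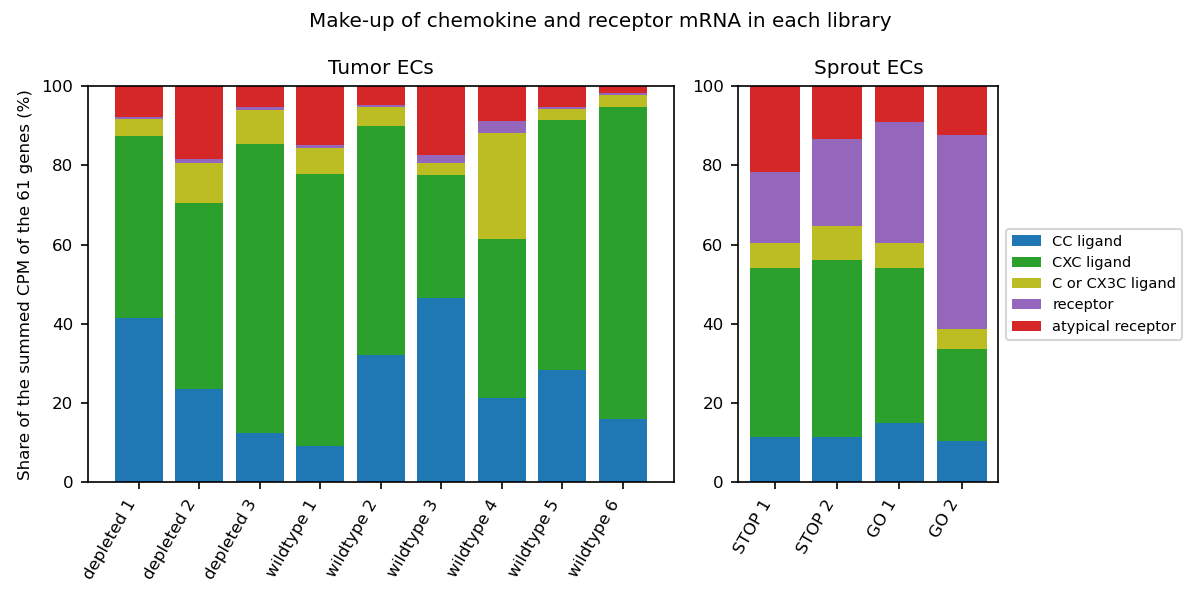
Share of the summed CPM of the 61 genes (y axis, %, not corrected for gene length) held by each class in every library (x axis). CC and CXC ligands fill most of each tumor bar, with at most 3.04% for signaling receptors. In sprout ECs signaling receptors take 17.9 to 48.8%, by HTSeq counts.

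Detection was uneven across the family. In tumor ECs, 9 members had at least 10 counts in every library (Ccl2, Cx3cl1, Cxcl1, Cxcl2, Cxcl9, Cxcl10, Cxcl12, Cxcl16 and Ackr3). In sprout ECs, 12 had (Ccl2, Ccl25, Ccl27a, Cx3cl1, Cxcl1, Cxcl10, Cxcl12, Cxcl14, Cxcl16, Ccr4, Cxcr4 and Ackr3). In all 13 libraries, 6 members were at 0 counts, namely Ccl21a, Ccl21b, Ccl21c, Ccl26, Ccl27b and Xcl1, of which the Ccl21 and Ccl27 genes have near-identical copies and are uncertain. The filter on low counts kept 26 members in tumor ECs and 17 in sprout ECs, 12 of them in both and 30 members in neither. Per kilobase of transcript, the highest mean levels over the tumor libraries were 686 CPM per kb for Ccl2, 418 for Cxcl10, 187 for Cxcl1, 184 for Cxcl9, 149 for Ccl7, 123 for Cxcl12 and 102 for Ackr1. Cxcr4 reached 6.65 CPM per kb there. In sprout ECs, by HTSeq counts, Cxcr4 had the highest mean over the 4 libraries with 33.0 CPM per kb. Ccl2 followed with 14.6, Ackr3 with 11.8, Cxcl1 with 11.1 and Cxcl12 with 10.7. By mean RSEM TPM, Cxcr4 also led with 50.5, but Cxcr2 came next with 31.0, ahead of Ccl2 with 22.7.

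The tumor comparison asked whether ECs of Apelin-depleted tumors differed in the chemokine signals they offer. With edgeR, calling a gene needed an adjusted p under 0.05 together with a log2 fold change beyond 1 in size, and no member was called, against 0.00765% of the 13073 tested genes called lower and 0% called higher. At an unadjusted p of 0.05 the count was likewise 0 of 26, where 2.94% of all tested genes were lower and 1.87% higher. The libraries of the groups overlapped for every member, tested or not, where 1.27% of all tested genes were separated downwards and 1.06% upwards. By fitted direction, Apelin-depleted ECs had lower values for 9 members and higher values for 17. The log2 fold changes had a median of 0.34 over the 26 and of -0.03 over all tested genes. All 12 endothelial markers were likewise fitted higher, with a median of 0.36, and none was called. Without the sort markers they summed to 7463 to 10446 CPM in Apelin-depleted and 5821 to 8403 CPM in Apelin wild-type ECs. Their part in the members' levels was not tested. The members' share of all counts was 0.338% ± 0.0857 (SD, n = 3) in Apelin-depleted and 0.257% ± 0.0817 (SD, n = 6) in Apelin wild-type ECs, a difference within the spread (exact two-sided permutation test, p = 0.190). Under the DESeq2 Wald test 1 member was called, Ccl11, lower, where 0.690% of genes were. Ccl11, which encodes the eosinophil attractant eotaxin, was at 0 in 7 of the 9 tumor libraries and was seen in Apelin wild-type replicates 1 (4.93 CPM) and 2 (29.6 CPM) only.

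**Figure D2:**
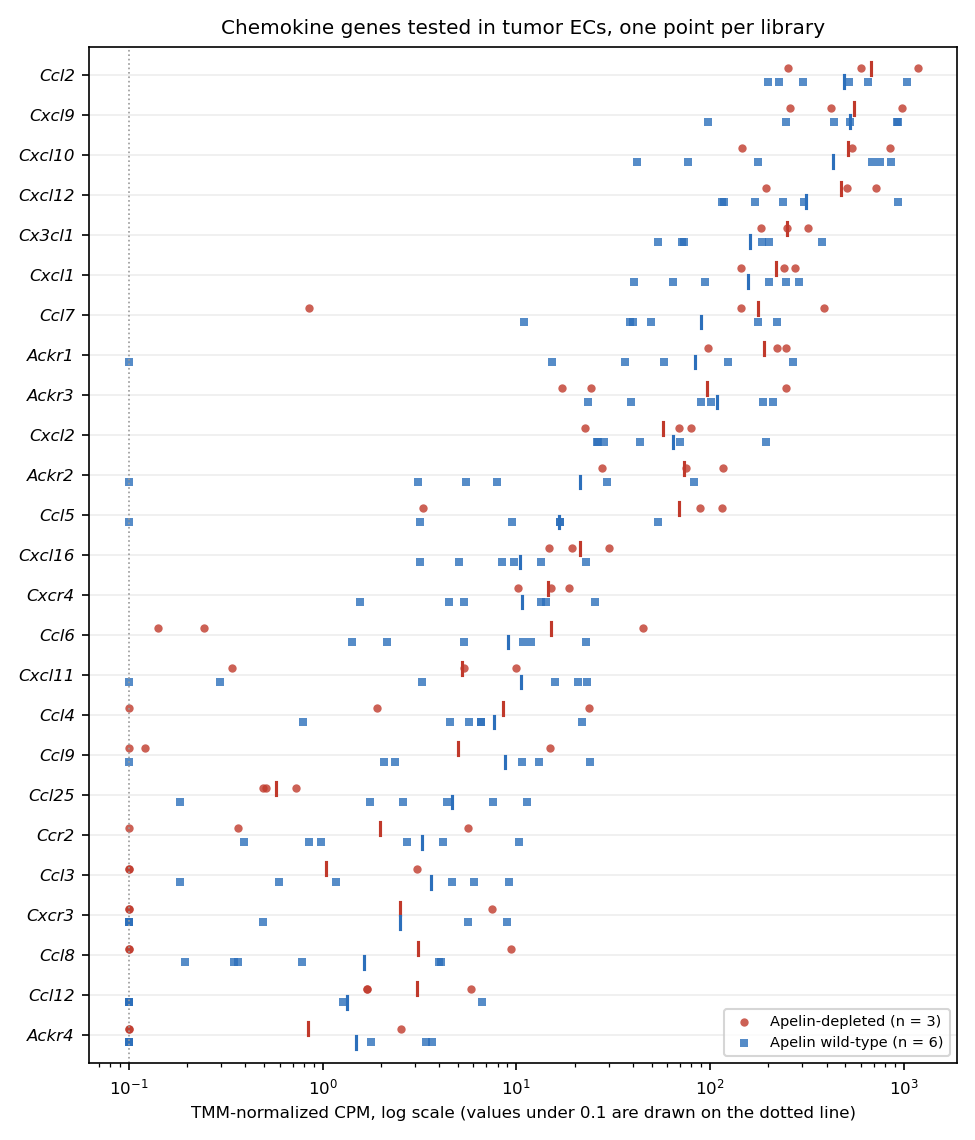
TMM-normalized CPM (x axis, log scale) of 25 of the 26 chemokine genes tested in tumor ECs, with 1 point per library and a bar at each group mean. The points of Apelin-depleted (n = 3) and Apelin wild-type (n = 6) libraries overlap in every row, and many genes span more than a decade within a group.

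The monocyte attractants Ccl2 and Ccl7 were abundant and variable. Ccl2 was at 1179, 601 and 253 CPM in Apelin-depleted replicates 1 to 3 and at 199 to 1037 CPM (median 412) in Apelin wild-type ECs. Its log2 fold change was 0.47 with a standard error of 0.53, and leaving out Apelin-depleted replicate 1 turned it to -0.20. Ccl7 was at 387, 145 and 0.853 CPM against 10.96 to 221 CPM (median 44.8). For Ccl7 the log2 fold change was 0.99 with a standard error of 1.34. For both genes the highest tumor library was Apelin-depleted replicate 1, which also had the most macrophage and monocyte markers, 1052 CPM, with 621 CPM in Apelin wild-type replicate 4 and 54.5 to 207 CPM in the rest. All 11 markers of that list were detected and tested and none was called. Ccl6, Ccl8, Ccl9 and the monocyte receptor Ccr2 each had their highest level in 1 of those 2 libraries, and Ccl6 was at 45.2 and 22.8 CPM there. The part of these cells in the levels of Ccl2 and Ccl7 was not tested. Without both libraries, an alternative chosen after the data were seen, the log2 fold changes of Ccl2 and Ccl7 were -0.36 and -0.45. Again no member was called, of 31 tested, where 2 of 13725 genes were called lower and 0 higher.

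The ligands of Cxcr3, which attract T and NK cells, did not separate the groups. Cxcl9 was at 260, 422 and 975 CPM in Apelin-depleted and 98.2 to 934 CPM (median 482) in Apelin wild-type ECs, with a log2 fold change of 0.07 and a standard error of 0.62. Cxcl10 was at 853, 540 and 147 CPM against 42.0 to 859 CPM (median 432), with a log2 fold change of 0.24 and a standard error of 0.98. Cxcl11 was at 0.340, 9.99 and 5.36 CPM against 0 to 23.1 CPM (median 9.54). Its log2 fold change was -1.0 with a standard error of 1.38. All 3 genes are neighbors, yet they did not peak in the same library. Cxcl9 was highest in Apelin-depleted replicate 3, and Cxcl10 and Cxcl11 in Apelin wild-type replicate 5. Ccl5, another T cell attractant, was at 115, 3.31 and 89.1 CPM in Apelin-depleted ECs and at 0 to 53.7 CPM (median 13.2) in Apelin wild-type ECs. Ccl5 had a log2 fold change of 2.04 with a standard error of 1.28 (edgeR, unadjusted p = 0.145) and was not called. T and NK cell markers summed to 55.7, 38.0 and 145 CPM in Apelin-depleted and to 0.141 to 10.2 CPM in Apelin wild-type ECs, although CD45+ cells were gated out. In Apelin-depleted replicate 2 the sum was nearly all Cd2, at 37.5 CPM, and no other marker of the list was above 0.352 CPM. Of the 10 such markers in the files 2 were tested, both fitted higher and neither called. Cd8a was at 0 in all libraries other than Apelin-depleted replicate 3, and Gzmb was at 0 in Apelin-depleted replicate 2 and in every Apelin wild-type library. Their part in the level of Ccl5 was not tested.

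Cxcl12 and the ligands for neutrophils varied likewise. Cxcl12 was at 509, 194 and 716 CPM in Apelin-depleted and at 116 to 939 CPM (median 205) in Apelin wild-type ECs, with a log2 fold change of 0.59 and a standard error of 0.66. That value was 1.32 without Apelin wild-type replicate 2 and 0.16 without Apelin-depleted replicate 3. Its highest value fell in Apelin wild-type replicate 2, the library with the most fibroblast and mural markers, where Cxcl1, Cxcl2, Ccl3 and Ccl12 were also highest. Fibroblast and mural markers summed to 87.9 to 186 CPM in Apelin-depleted and 86.1 to 5360 CPM in Apelin wild-type ECs. All 9 tested of the 10 had a negative log2 fold change and none was called. Cxcl12 was at 716 CPM in Apelin-depleted replicate 3 with 87.9 CPM of these markers, as the second highest of the 9 libraries. Cxcl1 was at 241, 274 and 145 CPM against 40.5 to 290 CPM (median 148), with a log2 fold change of 0.49 and a standard error of 0.51. Cxcl2 was at 80.0, 22.6 and 69.5 CPM against 26.2 to 194 CPM (median 35.9). Cxcl3 and Cxcl5 of the same cluster stayed at or below 1.87 CPM in each tumor library. Cx3cl1, the membrane-bound ligand fractalkine, was at 182, 322 and 249 CPM against 53.9 to 378 CPM (median 129). It had a log2 fold change of 0.65 with a standard error of 0.51. Cxcl16, the other membrane-bound ligand, was at 14.8, 30.2 and 19.4 CPM against 3.18 to 23.0 CPM (median 9.13), with a log2 fold change of 1.03 and a standard error of 0.66. Ccl25, which attracts thymocytes and gut-homing T cells, had the smallest unadjusted p of the family in tumor ECs. It was at 0.510, 0.492 and 0.731 CPM, or 3, 7 and 6 counts, in Apelin-depleted ECs and at 0.183 to 11.3 CPM (median 3.49) in Apelin wild-type ECs. Its log2 fold change was -2.97 with a standard error of 1.44 (edgeR, unadjusted p = 0.0562), and 1 Apelin wild-type library with 1 count lay below all Apelin-depleted ones.

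Of the receptors, the atypical ones led in tumor ECs. Ackr1, found on venular ECs where it carries chemokines across the wall, was at 247, 223 and 97.4 CPM in Apelin-depleted ECs. In Apelin wild-type ECs it ranged from 0 to 268 CPM (median 47.3). The log2 fold change of Ackr1 was 1.18 with a standard error of 1.34. Venous markers without Ackr1 summed to 758, 1267 and 928 CPM in Apelin-depleted and to 211 to 840 CPM in Apelin wild-type ECs. The Apelin wild-type library with the most of them, replicate 1, also had the most Ackr1. Apelin wild-type replicate 3, however, had 725 CPM of these markers and 36.4 CPM of Ackr1. Their part in the level of Ackr1 was not tested. Ackr2, a scavenger of inflammatory CC chemokines on lymphatic ECs, was at 75.6, 117 and 27.5 CPM against 0 to 82.3 CPM (median 6.73), with a log2 fold change of 1.77 and a standard error of 1.29. Lymphatic markers summed to 1014, 2008 and 245 CPM in Apelin-depleted ECs. They summed to 2265 CPM in Apelin wild-type replicate 3 and to at most 232 CPM in the other Apelin wild-type libraries. The 3 libraries with most lymphatic markers were the 3 with most Ackr2. All 4 lymphatic markers were fitted higher and none was called, and their part in the level of Ackr2 was not tested. Ackr3 was at 17.2, 248 and 24.4 CPM against 23.5 to 210 CPM (median 95.2). Ackr3 had a log2 fold change of -0.17 with a standard error of 0.92, which was -2.39 without Apelin-depleted replicate 2. Cxcr4 was at 10.2, 18.6 and 15.1 CPM against 1.56 to 25.5 CPM (median 9.36), with a log2 fold change of 0.44 and a standard error of 0.79. The leukocyte receptors Cxcr3 and Ccr2 were each at 0 counts in at least 1 Apelin-depleted library and reached at most 10.3 CPM. Cxcr2, through which Cxcl1 and Cxcl2 act on neutrophils, had at most 2.04 CPM. Neutrophil markers summed to 0.122 to 2.04 CPM in Apelin-depleted and to 2.64 to 22.8 CPM in Apelin wild-type ECs. Of the 7 markers of that list 2 were tested, both fitted lower and neither called (edgeR, smallest adjusted p = 0.686). Csf3r overlapped between the groups.

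Genes that produce, present or relay chemokine signals were read from 4 lists of 96 genes in the files. In tumor ECs 88 of them were tested and 0 were called. At an unadjusted p of 0.05, 3 were lower and 5 higher, where 2.94% and 1.87% of all tested genes were. Among genes of chemokine induction, Il6, a cytokine of inflamed endothelium, was at 127, 99.3 and 106 CPM in Apelin-depleted ECs. It was at 25.7 to 72.0 CPM in Apelin wild-type ECs. The groups did not overlap, and its log2 fold change was 1.37 with a standard error of 0.36 (edgeR, unadjusted p = 0.00165, adjusted p = 0.686). Tnfaip3, an NF-kappa-B inhibitor that NF-kappa-B induces, and the interferon regulatory factor Irf1 had log2 fold changes of 1.06 and 0.71. Among genes of presentation and cleavage, the heparan sulfate proteoglycan Gpc1 was at 15.3, 13.2 and 2.92 CPM against 23.2 to 204 CPM. Gpc1 had a log2 fold change of -2.86 with a standard error of 0.78 (edgeR, unadjusted p = 0.00222, adjusted p = 0.726). Sdc4, also a heparan sulfate proteoglycan, and the protease Mmp14 had log2 fold changes of -1.37 and -0.69. Among genes of receptor signaling, Rgs3 and Rgs16, which shorten G protein signals, had log2 fold changes of 0.84 and 1.69 and the GTPase Rac2 one of 2.42. Rgs16 was at 865 CPM in Apelin-depleted replicate 2 alone, and without that library its log2 fold change was -0.38. Among chemokine-like and atypical genes, Mif, Cmtm4 and the chemerin receptor Cmklr1 had log2 fold changes of -0.58, -1.38 and 2.02, with unadjusted p from 0.0779 to 0.127 (edgeR).

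The sprout comparison asked the same of ECs formed in culture. No member was called, where 3.03% of the 14557 tested genes were called lower and 0.852% higher in libraries labelled Apln STOP. At an unadjusted p of 0.05, 2 of 17 members were lower, Cxcr4 and Ackr1, and 0 higher, against 14.3% and 12.4% of all tested genes. Both Apln STOP libraries lay below both Apln GO libraries for 3 of the 17, Cxcr4, Ackr1 and Ccl25, and above them for 0, against 29.6% and 31.0% of all tested genes. These shares are near the background or below it. By fitted direction Apln STOP had lower values for 13 members and higher values for 4, and the log2 fold changes had a median of -0.32 over the 17 and of 0.01 over all tested genes.

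**Figure D3:**
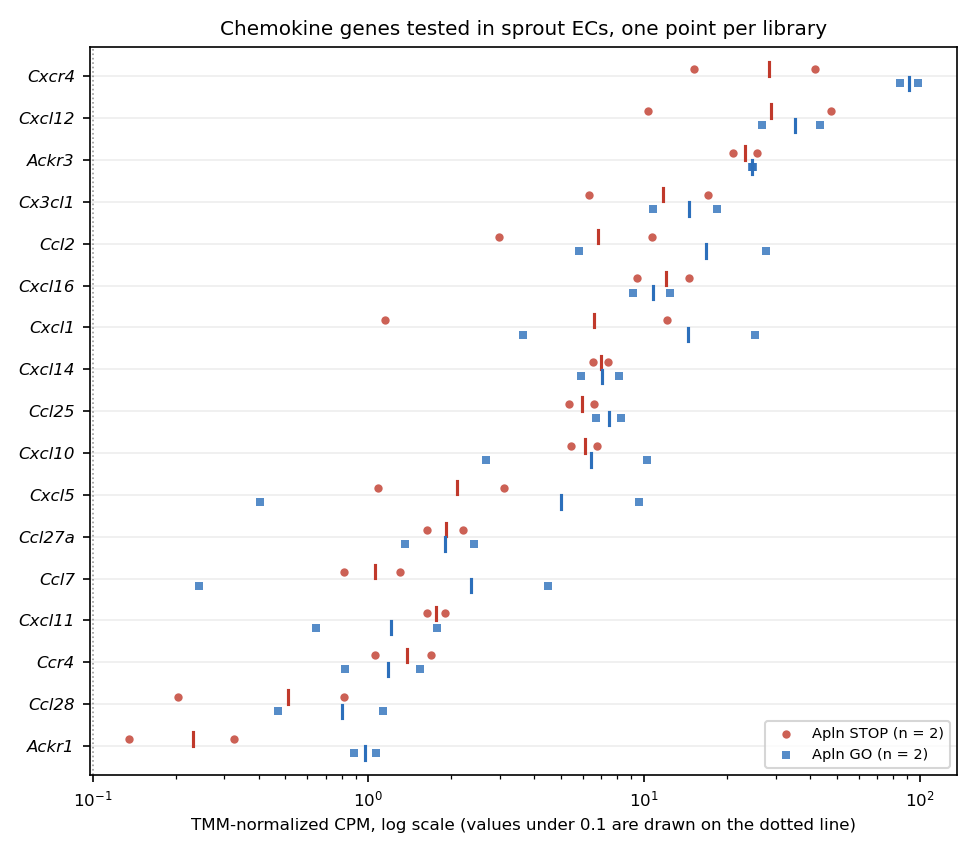
TMM-normalized CPM (x axis, log scale) of the 17 chemokine genes tested in sprout ECs, with 1 point per library and a bar at each mean of 2. The points of Apln STOP lie left of those of Apln GO for Cxcr4, Ackr1 and Ccl25, while Ackr3, Cxcl14 and Cxcl16 lie close together.

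Cxcr4, the receptor for Cxcl12, had the highest CPM of the members in both Apln GO libraries, while Ackr3 led in Apln STOP replicate 1 and Cxcl12 in Apln STOP replicate 2. It was at 15.2 and 41.7 CPM in Apln STOP and at 84.8 and 98.1 CPM in Apln GO, that is 224 and 512 against 1437 and 1216 counts. The groups did not overlap, but Apln STOP replicate 1 was much lower than replicate 2. The log2 fold change of Cxcr4 was -1.69 with a standard error of 0.55 (edgeR, unadjusted p = 0.0442, adjusted p = 0.176). Without Apln STOP replicate 2 it was -2.60 with an adjusted p of 0.00105 (edgeR). That fit holds 1 Apln STOP library, its spread comes from the 2 Apln GO libraries alone, and the lone library is assumed to vary like them. In it Cxcr4 and Cxcl12 were called lower, where 3.61% of genes were. All 12 endothelial markers were likewise fitted lower in Apln STOP, 11 of them called. Per 1000 CPM of summed endothelial markers, Cxcr4 was at 35.3 and 67.4 CPM in Apln STOP and at 39.6 and 48.0 CPM in Apln GO, so that on this scale, added after the data were seen, the groups overlapped. Cxcl12 was at 10.3 and 47.5 CPM against 43.5 and 26.8 CPM. The log2 fold change of Cxcl12 was -0.29 with a standard error of 0.93, and it was -1.79 without Apln STOP replicate 2 but 0.45 without Apln STOP replicate 1. Its low and high libraries followed the fibroblast and mural markers, whose part was not tested. Ackr3 was the steadiest member, at 20.9 and 25.6 CPM against 24.6 and 24.8 CPM, with a log2 fold change of -0.09 and a standard error of 0.19.

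**Figure D4:**
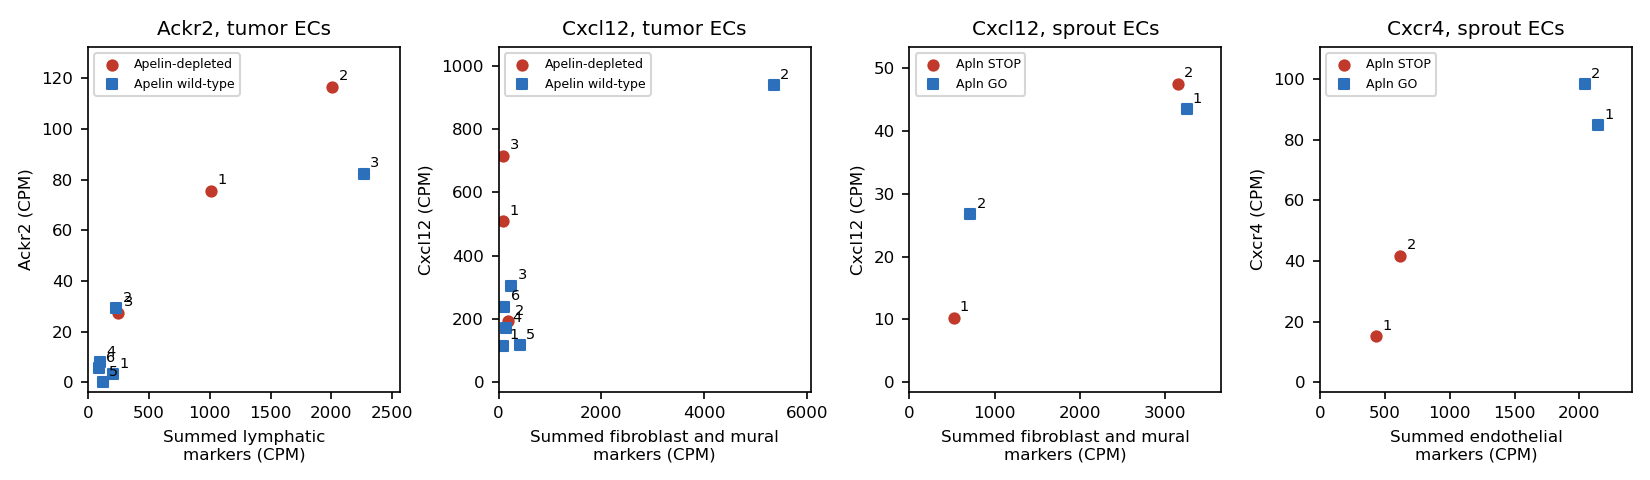
Level of 1 chemokine gene per library (y axis, CPM) against the summed level of a marker list (x axis, CPM), numbered by replicate. Ackr2 was highest in the 3 tumor libraries with most lymphatic markers, Cxcl12 was highest in the tumor library with most fibroblast and mural markers but second highest in 1 with few, at 716 CPM, and was higher in both sprout libraries with more of these markers, and Cxcr4 in sprout ECs was higher in both libraries with more endothelial markers.

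Ackr1 was scarce in sprout ECs, with 2 and 4 counts in Apln STOP and 18 and 11 counts in Apln GO. This was 0.135 and 0.326 CPM against 1.06 and 0.888 CPM, with a log2 fold change of -2.09 and a standard error of 0.71 (edgeR, unadjusted p = 0.0190, adjusted p = 0.118). Per 1000 CPM of endothelial markers Ackr1 was at 0.315 and 0.526 CPM in Apln STOP and at 0.496 and 0.435 CPM in Apln GO, which overlap. Ccl25 was at 5.35 and 6.60 CPM against 6.67 and 8.23 CPM, with a log2 fold change of -0.32 and a standard error of 0.30. Of the 29 members under the filter with at least 1 count, 10 were separated in the same direction and 0 upwards, where 14.9% of all such genes were separated downwards and 13.6% upwards. The 10 were Ackr4, Ccl3, Ccl6, Ccl9, Ccl11, Ccr1, Ccr2, Cx3cr1, Cxcl3 and Cxcr3. They had at most 4 counts in any Apln STOP library and at most 14 in any Apln GO library. Pan-leukocyte markers summed to 56.7 and 45.4 CPM in Apln STOP and to 90.9 and 93.4 CPM in Apln GO. Of the 4 tested of 6, 2 were fitted lower and 2 higher, and Lcp1 was called lower. Lcp1 was at 12.1 and 16.6 CPM against 67.7 and 53.8 CPM. Laptm5 overlapped, at 41.2 and 26.3 CPM against 18.6 and 33.3 CPM. Macrophage and monocyte markers summed to 45.4 and 26.8 CPM against 30.2 and 36.6 CPM, with none of the 5 tested of 11 called. Their sum was mostly Cd68, which overlapped between the groups, as did Fcgr1 and Lyz2, and Ms4a7 was at 0. Of the same list Csf1r, Adgre1, C1qa, C1qb, C1qc and Mrc1 were separated downwards, C1qb with 0 and 2 against 15 and 17 counts, and Cd14 upwards, with 17 and 10 against 11 and 5 counts. The part of such cells in these low members was not tested. With no filter, Cx3cr1, the fractalkine receptor, had 1 and 0 counts by HTSeq against 13 and 7 and was called lower by edgeR, where 3.25% of genes were. By RSEM, however, Cx3cr1 had 44 and 56 expected counts against 49 and 64, and its TPM, 1.12 and 1.68 against 1.26 and 2.03, overlapped.

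The other ligands differed more between libraries of a group than between groups. Ccl2 was at 2.98 and 10.7 CPM in Apln STOP and at 27.6 and 5.81 CPM in Apln GO, with a log2 fold change of -1.31 and a standard error of 1.13. Ccl7 was at 0.813 and 1.30 CPM against 4.48 and 0.242 CPM. Ccl7 had a log2 fold change of -1.21 with a standard error of 1.23. Cxcl1 was at 1.15 and 12.1 CPM against 25.3 and 3.63 CPM, with a log2 fold change of -1.16 and a standard error of 1.67. Cx3cl1 was at 6.30 and 17.0 CPM against 18.3 and 10.7 CPM (log2 fold change -0.33, standard error 0.54), and Cxcl10 at 5.42 and 6.76 CPM against 10.2 and 2.66 CPM (log2 fold change -0.10, standard error 0.61). Together with Cxcl5 and Cxcl12, 7 of the 17 members were higher in both Apln STOP replicate 2 and Apln GO replicate 1 than in either other library. These are the libraries with the most fibroblast and mural markers, whose part was not tested. When a block for crossed replicate numbers was fitted, an alternative added after the data were seen, Ccl2, Cxcl1 and Ackr1 were called lower, where 6.41% of genes were. Cxcl16 and Cxcl14 varied little, with log2 fold changes of 0.15 and -0.02 and standard errors of 0.30 each. Cxcl11 was at 1.90 and 1.63 CPM against 1.77 and 0.646 CPM, with a log2 fold change of 0.51 and a standard error of 0.57.

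For sprout libraries the authors deposited 2 counts per gene, and these did not match for all members. Cxcr2 had 0, 2, 0 and 1 counts by HTSeq in Apln STOP replicates 1 and 2 and Apln GO replicates 1 and 2. RSEM gave it expected counts of 1167, 815, 695 and 902 and TPM of 36.5, 30.0, 22.2 and 35.4 in the same libraries. Cxcr4 had TPM of 11.7, 31.9, 77.7 and 80.6, below those of Cxcr2 in Apln STOP replicate 1 and above them in both Apln GO libraries. In all, 8 members with at least 10 expected counts had over 10 times their HTSeq count, namely Ccl21b, Ccl24, Ccl27b, Ccr9, Cx3cr1, Cxcr2, Cxcr5 and Xcr1. Which reads made this difference was not tested, and these 8 are uncertain in sprout ECs. Cxcr4 had sums of 3389 and 3375 by the 2 tools, Cxcl12 of 1804 and 1786, and Ccl2 of 715 and 684. On expected counts 26 members passed the filter and 0 were called by edgeR, where 365 of 15523 genes were called lower and 104 higher.

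In sprout ECs 87 genes of the 4 lists were tested, 69 fitted lower and 18 higher, and their log2 fold changes had a median of -0.43. Of these, 5 were called lower and 0 higher, against 3.03% and 0.852% of all tested genes. At an unadjusted p of 0.05 the counts were 35 and 4, against 14.3% and 12.4%. With the replicate block 0 of the 87 were called, where 41 of all 14557 tested genes were called lower and 3 higher. In the main fit 4 genes of receptor signaling were called lower. Rgs3, a brake on G protein signals, was at 13.8 and 17.0 CPM in Apln STOP and at 50.2 and 39.1 CPM in Apln GO, with a log2 fold change of -1.54 and a standard error of 0.21 (edgeR, adjusted p = 0.00936). Prex1, an exchange factor for Rac, had a log2 fold change of -1.09 (edgeR, adjusted p = 0.0112). Jak2, a kinase of cytokine receptors, and Gng11, a G protein gamma subunit, had log2 fold changes of -1.14 and -2.11 (edgeR, adjusted p = 0.0299 and 0.0301). Gnai2, the G protein alpha subunit used by chemokine receptors, was at 287 and 360 CPM against 640 and 600 CPM. The log2 fold change of Gnai2, -0.94, stayed short of the fold threshold (edgeR, adjusted p = 0.0196). Among chemokine-like and atypical genes Gpr182, an endothelial scavenger of chemokines, fell from 8.38 and 7.26 CPM in Apln GO to 1.35 and 1.71 CPM in Apln STOP, with a log2 fold change of -2.35 (edgeR, adjusted p = 0.0137). With 1 library left out, the log2 fold changes ranged from -1.71 to -1.34 for Rgs3 and from -2.79 to -1.62 for Gng11. They ranged from -2.54 to -2.17 for Gpr182, from -1.20 to -0.96 for Prex1 and from -1.43 to -0.88 for Jak2. Prex1 and Jak2 thus fell short of the fold threshold in some of these fits. None of the genes called in the main fit was called in every one of them, and each such fit leaves 1 library in its group. Pf4, the platelet chemokine Cxcl4, and Cmtm4 had log2 fold changes of -2.65 and 0.51 and were not called. Platelet and megakaryocyte markers, a list that includes Pf4, summed to 10.02 and 5.13 CPM in Apln STOP and to 22.6 and 32.2 CPM in Apln GO. Most of each sum was Itga2b, at 8.60 and 3.75 CPM against 19.1 and 27.6 CPM. Gp1bb was also separated downwards, while Ppbp, Gp5 and Gp9 overlapped. The part of the other markers in the level of Pf4 was not tested. Of the genes of induction, the NF-kappa-B subunits Rela, Nfkb2 and Relb had log2 fold changes of -0.90, -0.86 and -0.82, and none reached the fold threshold. Ext1, Ndst1 and Hspg2, which make or carry heparan sulfate, had log2 fold changes of -0.80, -0.82 and -0.68, and none was called. Endothelial markers moved the same way as these genes, and their part was not tested.

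**Figure D5:**
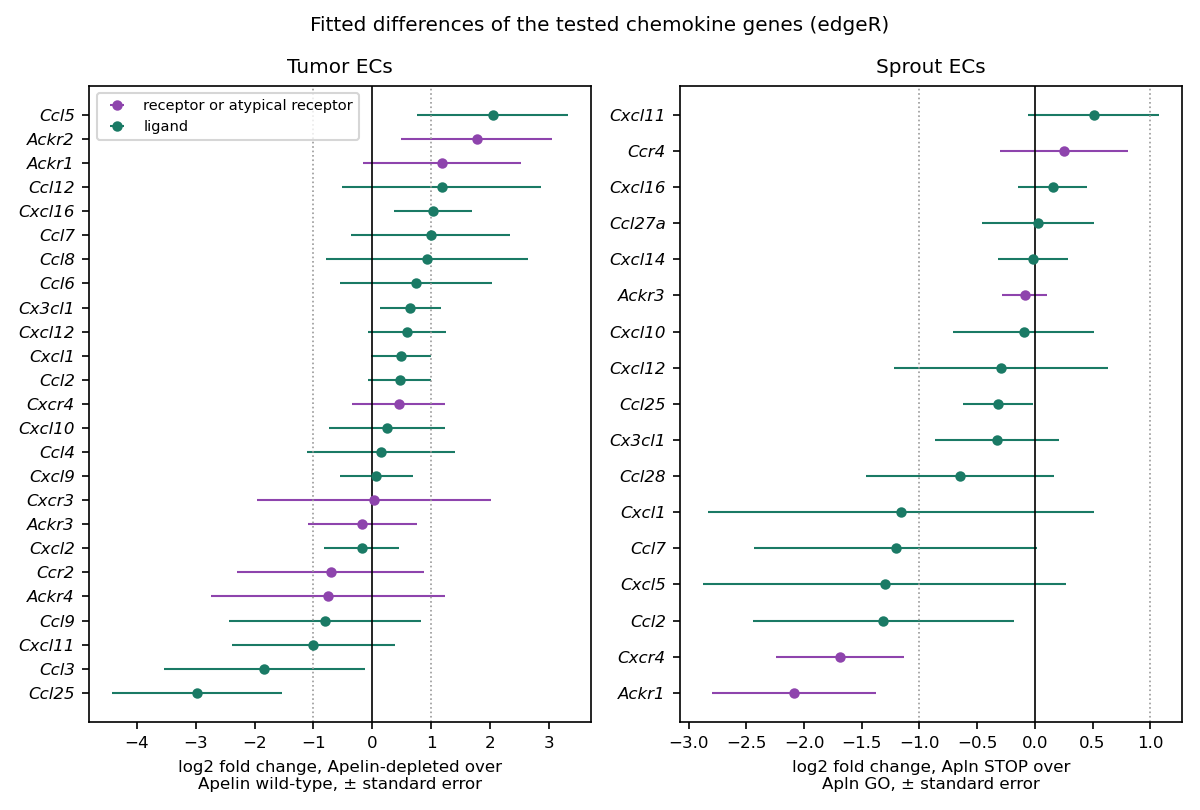
Log2 fold change with its standard error (x axis) for 25 of the 26 members tested in tumor ECs, Apelin-depleted over Apelin wild-type, and the 17 tested in sprout ECs, Apln STOP over Apln GO, with dotted lines at an absolute value of 1. Errors exceed 1 for many tumor genes, and Cxcr4 and Ackr1 are lowest in sprout ECs.

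For the 12 members tested in both sets of ECs the fitted values can be set side by side. With 1 library left out the sign turned in at least 1 set for Ackr3, Ccl2, Ccl7, Cx3cl1, Cxcl1, Cxcl10, Cxcl12 and Cxcl16, so that their signs carry no weight. Cxcr4 was at 0.44 in tumor and -1.69 in sprout ECs, and Ackr1 at 1.18 and -2.09. Ackr3 was at -0.17 and -0.09, of which the tumor value turned on Apelin-depleted replicate 2. Ccl25 had a negative value in both, -2.97 and -0.32, and Cxcl16 a positive one, 1.03 and 0.15. Of the monocyte and neutrophil attractants, Ccl2 was at 0.47 and -1.31, Ccl7 at 0.99 and -1.21, and Cxcl1 at 0.49 and -1.16. Cx3cl1 was at 0.65 and -0.33, Cxcl12 at 0.59 and -0.29, Cxcl10 at 0.24 and -0.10, and Cxcl11 at -1.0 and 0.51. Differences between the sets were not tested, since tissue and protocol changed with them.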

How the data were processed

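RNA-Seq was analysed in 9 libraries of tumor ECs (Smart-Seq2) and 4 of sprout ECs (poly-A selection, TruSeq), with none pooled (50-bp single-end reads for tumor ECs). For tumor ECs the authors counted reads per gene with featureCounts (Subread 1.6.2) and deposited raw counts. The submitters' processing notes name Trim Galore 0.5.0 and Bowtie2 2.3.4.1, whereas the methods name STAR, so the aligner is uncertain. For sprout ECs the authors aligned with STAR 2.5.0a and deposited HTSeq 0.6.1p1 counts, RSEM 1.2.25 expected counts and RSEM TPM, all on mm10. HTSeq leaves out reads with several alignments and RSEM shares them out, so genes with close copies can differ.

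Counts were normalized by TMM and tested per set of ECs with edgeR 4.0.16 (filterByExpr, minimum count 10, robust quasi-likelihood fit, group only, Benjamini-Hochberg over all tested genes), and a call needed an adjusted p under 0.05 with a log2 fold change beyond 1 in size. Standard errors were the absolute log2 fold change divided by the square root of F. CPM used TMM-scaled library sizes, and lengths came from the deposited tables. Expected counts were rounded for their alternative fit. Alternatives were DESeq2 1.42.0, its size factors in edgeR, no filter, a mean of at least 10 counts, no fold threshold, limma 3.58.1 voom with sample weights (tumor), RSEM expected counts (sprout), a replicate block and each library left out. On simulated counts, edgeR called 23.5% of the genes given a simulated log2 difference of 2 and 77% of those given 4 in the tumor design, and in the sprout design 88.5% and 100%. Depth, from 4661044 to 16804071 counts, limits single low counts, and floors cover counting error only.

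The members, gene lists, designs and tests were chosen with earlier results of these data known, and the lists support nothing on their own. Named were members called, the 8 most abundant and the 5 with the smallest p per set, members of ligand-receptor axes tested in both sets and those separated between groups, and of the lists the genes called and the 3 with the smallest p per list. Other members named were chosen after their values were seen. Same-numbered libraries did not deviate together in tumor ECs (correlations -0.06, 0.05 and -0.11), and in sprout ECs they deviated in opposite directions (-0.39). Protein sequences were not used here, and the values of 1 member are not reported here.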

Additional observations from a re-analysis of the deposited data

Results flagged for a closer look

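Of 27 values checked over the 6 Apelin wild-type tumor libraries (the named members and the marker sums), 8 had 1 library standing apart from the rest by a Dixon test. Chance gives this in about 1 of 20 groups only if values are normally distributed. CPM were used here without a transformation, so that rate need not hold and the count of 8 was not set against chance. Among members, Cxcl12 was at 939 CPM in replicate 2 with 305 CPM as the next value, Ccl5 at 53.7 CPM in replicate 2 with 16.9 CPM next, and Ackr2 at 82.3 CPM in replicate 3 with 29.4 CPM next. Among marker sums, fibroblast and mural markers were at 5360 CPM in replicate 2 against 410 CPM next, and lymphatic markers at 2265 CPM in replicate 3 against 232 CPM next. In replicate 4, macrophage and monocyte markers were at 621 CPM against 207 CPM next, and pan-leukocyte markers at 424 CPM against 147 CPM next. Platelet and megakaryocyte markers were at 96.4 CPM in replicate 3 against 25.6 CPM next.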

How the results depend on the processing

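The absence of called members held in tumor ECs in each alternative except the DESeq2 Wald test. Those other alternatives called 1 to 7 of all tested genes lower and 0 to 9 higher. The DESeq2 Wald test called 1 member lower (Ccl11) and 1 list gene lower (Gpc1), where 0.690% of genes were. Gpc1 had log2 fold changes of -3.39 to -2.26 over its alternatives. In sprout ECs, 1 member was called lower with no filter, 3 with the crossed replicate block, and 0 to 2 when 1 library was left out. List genes called lower in sprout ECs numbered 11 with DESeq2, 8 with no filter, 9 with no fold threshold, 0 with the replicate block, 17 with the crossed block, and 1 to 14 with 1 library left out, against 5 in the main fit, and those called higher numbered 0 to 1. With the replicate block 0 members were called in either set, where 2 of 13073 genes in tumor ECs and 41 of 14557 in sprout ECs were called lower. The shared numbers do not pair the libraries. Uncalled log2 fold changes often turned sign. In tumor ECs without the 2 leukocyte-richest libraries they were 0.31 for Ackr3, -0.36 for Ccl2, -0.45 for Ccl7 and -0.54 for Cxcl10, with the replicate block -0.041 for Ccl2, and with voom weights -0.56 for Ccl7 and 0.11 for Cxcl11. In sprout ECs Cxcl10 was at 0.17 with the replicate block and 0.12 with the crossed block. With 1 library left out, tumor values ranged from -2.39 to 0.33 for Ackr3, -0.20 to 0.86 for Ccl2, -0.29 to 1.56 for Ccl7, -0.32 to 0.69 for Cxcl10, -0.62 to 0.42 for Cxcl9 and -0.38 to 2.23 for Rgs16. Sprout values ranged from -0.25 to 0.072 for Ackr3, -2.52 to 0.22 for Ccl2, -2.08 to 2.07 for Ccl7, -1.23 to 0.24 for Cx3cl1, -3.68 to 0.85 for Cxcl1, -0.74 to 1.19 for Cxcl10, -1.79 to 0.45 for Cxcl12, -0.22 to 0.24 for Cxcl14 and -0.17 to 0.41 for Cxcl16. Other tumor values kept their sign with 1 library left out but ranged widely. They lay from 0.91 to 2.02 for Ackr1, 1.25 to 2.97 for Ackr2, 1.45 to 2.89 for Ccl5 and 2.05 to 4.02 for Rac2. The causes of these ranges were not tested. Cxcr4 and Ackr1 stayed lower in sprout ECs in the edgeR and DESeq2 fits that gave them a value (the filter on a mean of 10 counts removed Ackr1), from -2.60 to -1.11 and from -2.79 to -1.54, with adjusted p of 0.00105 to 0.567 and 0.0477 to 0.529, but relative to endothelial markers their groups overlapped. Leaving out a sprout library leaves 1 library in its group, assumed to vary like the other group, and the p of 0.00105 comes from such a fit. The adjusted p of 0.0477 for Ackr1 came from the edgeR fit with the crossed replicate block, which was added after the data were seen. In tumor ECs, where 23.5% of genes with a simulated log2 difference of 2 were called, differences of that size could be missed.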
